A study of Homo sapiens with 6 samples.

Results

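The mitochondrial chaperones and proteases described here are 10 nuclear genes, HSPD1, HSPE1, TRAP1, GRPEL1, CLPP, CLPX, CLPB, LONP1, YME1L1 and AFG3L2, each found once by its symbol among the 35106 rows of the gene count table. They were measured by RNA sequencing in HCT116, an established human colon carcinoma cell line labelled as wild type in genotype. One group of 3 libraries came from cells given curcumin, the polyphenol of turmeric, for 24 h at a dose whose unit is written as a length and is read here as µM, giving 30 µM. The other group of 3 libraries came from untreated cells, for which no solvent control is named. All libraries come from this 1 line, and nothing states that the replicates were separate cultures, so p-values measure the spread between these libraries, which may be technical. By its title the study concerns inhibition of these cells by curcumin, and curcumin against untreated is its only comparison.

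Mitochondria import nearly all of their proteins unfolded and need their own folding and degradation machines. In the matrix, HSP70 pulls the chains in, and the chaperonin HSP60 (HSPD1) with its lid HSP10 (HSPE1) folds them in a closed chamber. AAA+ machines, powered by ATP, unfold and degrade proteins that are damaged or no longer needed: LONP1 and ClpXP (CLPX with CLPP) in the matrix, and the m-AAA and i-AAA proteases (AFG3L2 and YME1L1) in the inner membrane. Raised expression of several of these genes is the textbook readout of the mitochondrial unfolded protein response, and the chaperonin pair is also a heat shock gene pair.

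HSPD1 and HSPE1 lie head to head on chromosome 2, and their starts are shown because both transcripts read outwards from this stretch. In RefSeq (GRCh38.p14), the HSPE1 start on the plus strand lies 539 bases from one HSPD1 start on the minus strand and 105 bases from another. The windows below run from 250 bases before a start to 50 bases from it on, 5′ to 3′ on the gene's own strand. Capitals mark a run of 4 alternating GAANN and TTCNN units (the last without its NN), the repeat that makes up a heat shock element.
HSPD1 (chr2:197499791-197500090, minus strand): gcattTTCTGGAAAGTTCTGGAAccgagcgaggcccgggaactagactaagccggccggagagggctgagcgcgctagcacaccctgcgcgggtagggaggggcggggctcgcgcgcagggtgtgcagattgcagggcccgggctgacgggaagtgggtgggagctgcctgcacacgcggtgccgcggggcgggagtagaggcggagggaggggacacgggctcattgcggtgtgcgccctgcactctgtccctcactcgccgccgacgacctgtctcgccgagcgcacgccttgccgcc
HSPE1 (chr2:197500129-197500428, plus strand): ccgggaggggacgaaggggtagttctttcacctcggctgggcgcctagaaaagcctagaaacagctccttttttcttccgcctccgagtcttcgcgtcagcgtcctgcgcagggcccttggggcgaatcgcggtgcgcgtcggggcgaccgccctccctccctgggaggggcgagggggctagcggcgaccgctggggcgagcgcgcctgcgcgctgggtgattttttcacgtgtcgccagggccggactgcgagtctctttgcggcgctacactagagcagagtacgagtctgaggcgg
The run TTCTGGAAAGTTCTGGAA lies at bases -245 to -228 from that HSPD1 start (chromosome 2, 197500068 to 197500085). It lies between that start and the HSPE1 start, and downstream of the other HSPD1 start at 197500274. A search of both strands found 4 such units in a row in 12 of 35116 human promoter windows of the same length (0.0342%), 3 units in 0.490% and 2 units in 13.5%. The longer matches contain the shorter ones. Windows were present for 7 of the 10 genes, and none of those of HSPE1, TRAP1, CLPB, CLPX, LONP1 and AFG3L2, nor the other HSPD1 window, held even 2 units. TGATGNAAT, the C/EBP and ATF composite element, was in 0.991% of all windows and in none of these 9. TGCAAT, which it contains where N is C, was found once, before HSPD1, and in 8.21% of all windows. A match is a description of letters and says nothing of whether a factor binds.

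Library totals ran from 16663562 to 17893056 counts after curcumin and from 18154380 to 20311769 counts in untreated cells. The 10 genes together took 1833 to 2026 CPM, counts scaled by library size alone, after curcumin and 1571 to 2184 CPM in untreated cells. The quasi-likelihood test of edgeR was run on 13718 genes, of which 56.1% were called at an adjusted p under 0.05, 27.2% higher and 28.9% lower, so a call by itself sets a gene little apart. The 100 most abundant genes took 39.9 to 43.3% of counts after curcumin and 18.9 to 22.7% in untreated cells, and the TMM scaling factors were 0.716 to 0.804 after curcumin and 1.30 to 1.34 in untreated cells. Levels below are TMM-normalised CPM, and every rise or fall is relative to the other transcripts. The median log2 fold change of all genes shifted by -0.80 when TMM factors were left out, called size-only scaling below, and by -0.36 when library sizes were taken without the 100 most abundant genes. Fewer cells and less RNA per cell cannot be told apart in bulk RNA. Among 7 colon epithelial markers, EPCAM was 323 ± 13.4 CPM after curcumin and 174 ± 26.7 CPM in untreated cells (SD, n = 3 each), whereas VIL1 was near 0 in both groups (0.526 CPM after curcumin and 0.204 CPM in untreated cells). CDX2, an intestinal transcription factor on the same list, fell to 9.64 ± 2.96 CPM after curcumin, against 25.4 ± 1.19 CPM in untreated cells (-1.40 on the log2 scale, adjusted p = 0.00058). The 7 epithelial markers summed to 7217 to 8462 CPM after curcumin and 3790 to 4488 CPM in untreated cells. The keratin KRT8 was the largest part, at 4657 ± 295 CPM after curcumin and 1944 ± 199 CPM in untreated cells. CDH1, on the same list, was not called (0.16 on the log2 scale, adjusted p = 0.46). The 7 markers of other cell types summed to 29.5 to 70.9 CPM after curcumin and 28.4 to 34.3 CPM in untreated cells, with PTPRC, COL1A2 and CDH5 at or near 0. Most of the untreated sum was the fibroblast marker COL1A1, at 22.9 ± 12.7 CPM after curcumin and 28.6 ± 2.65 CPM in untreated cells. The muscle marker DES had 5.35 ± 0.795 CPM after curcumin and 3.24 ± 0.757 CPM in untreated cells. The endothelial marker PECAM1 had 89, 164 and 320 counts after curcumin and 0, 3 and 4 in untreated cells, and its part in the results was not tested.

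All 10 genes passed the low-count filter. After curcumin 6 of the 10 rose (HSPD1, HSPE1, TRAP1, CLPP, YME1L1 and GRPEL1), against 27.2% of all genes tested, and 3 fell (CLPB, AFG3L2 and CLPX), against 28.9%. LONP1 passed in neither direction. The CPM of the groups did not overlap for these 9 genes, 6 higher and 3 lower, as for 64.0% of all genes tested (30.9% higher and 33.1% lower). The median log2 fold change of the 10 was 0.43, against -0.037 over all genes tested. Under size-only scaling 1 rose and 6 fell, against 9.62% and 56.5% of all genes, and the same numbers had groups that did not overlap, against 11.8% and 59.7%. With library sizes without the 100 most abundant genes, 3 rose and 4 fell, against 18.6% and 40.6%. Relative to the median of all genes, 7 lay above and 3 below under TMM and under size-only scaling, and 6 above and 4 below without the 100 most abundant genes. CLPX, CLPB and AFG3L2 were below it under all 3, whereas LONP1 lay close to it, at 0.0013 above under TMM.

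**Figure D1:**
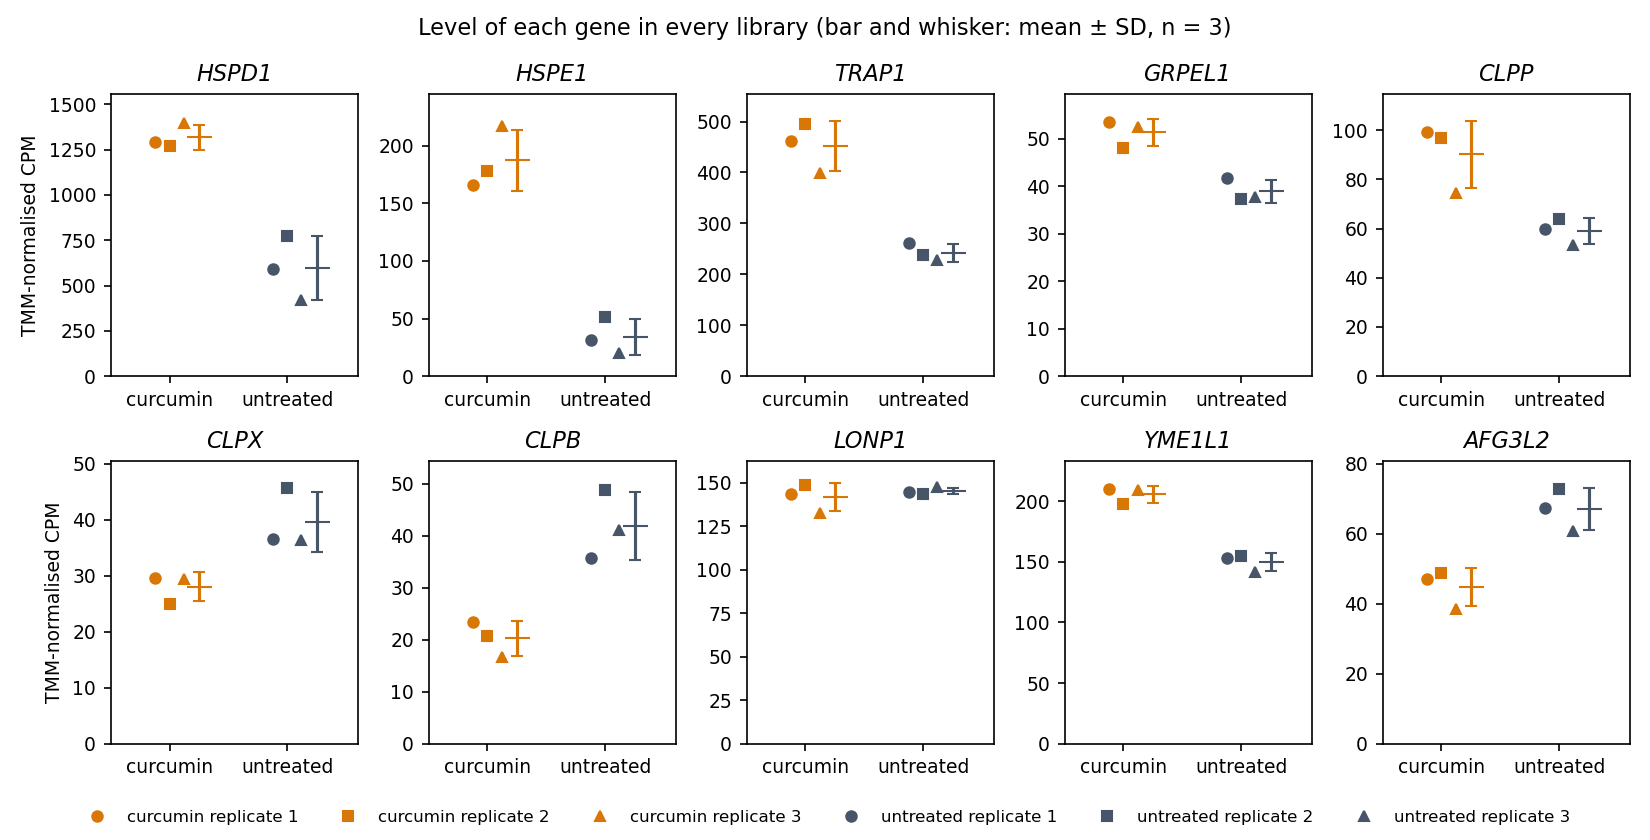
TMM-normalised CPM (vertical axes, from 0) of the 10 genes in each of 3 curcumin and 3 untreated libraries, one symbol per replicate, with mean ± SD beside them. The groups are apart for 9 genes, and the values of LONP1 overlap, from 133 to 148 CPM after curcumin and from 143 to 147 CPM in untreated cells.

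The chaperonin pair rose most. HSPD1, the HSP60 ring subunit (ENSG00000144381, chromosome 2, 197486581 to 197516737, GRCh38, GENCODE release 29), had 1290.0, 1267 and 1395 CPM in curcumin replicates 1, 2 and 3, against 594, 775 and 419 CPM in untreated replicates 1, 2 and 3. Every curcumin library was above every untreated one, and the untreated libraries differed far more among themselves than the curcumin ones. The log2 fold change was 1.15 ± 0.21 (SE; adjusted p = 0.0011). HSPE1, the HSP10 lid (ENSG00000115541, chromosome 2, 197499994 to 197503457), had 166, 178 and 217 CPM after curcumin, against 31.2, 51.0 and 19.9 CPM in untreated cells. Its lowest curcumin library was above its highest untreated one, and its log2 fold change of 2.46 ± 0.30 (adjusted p = 0.00010) was the largest of the 10. In untreated cells both genes were highest in replicate 2 and lowest in replicate 3. Without untreated replicate 2 the HSPE1 value was 2.86, and without untreated replicate 3 it was 2.17.

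The 2 chaperonin genes differed in how far their calls rest on scaling. HSPE1 kept its call in all 17 alternatives, and under size-only scaling its log2 fold change was 1.64 (adjusted p = 0.00031). For HSPD1 the same scaling gave 0.34 (adjusted p = 0.16), with 1036, 952 and 997 CPM after curcumin and 771, 1037 and 555 CPM in untreated cells, so that the groups overlapped through untreated replicate 2. HSPD1 kept its call in the other 16. Within a library, where scaling plays no part, there were 0.129, 0.140 and 0.156 HSPE1 counts per HSPD1 count after curcumin, against 0.0525, 0.0658 and 0.0475 in untreated cells. The ratio was thus higher in 3 of 3 curcumin libraries, with a difference of 1.37 on the log2 scale (exact permutation test, two-sided, p = 0.1, which is the lower limit for 3 against 3, and 0.125 adjusted over 10 ratios). It sets a transcript of 950 bases against one of 2455, and fold changes fell with transcript length. With the trend in transcript length and GC content removed, HSPE1 rose by 1.51 and HSPD1 by 0.98. With median transcript lengths in place of the longest, they rose by 1.96 and 0.86.

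Near copies took few reads of this pair. Of 17 rows named as HSPD1 pseudogenes, 8 had any count, 34 in all after curcumin and 53 in untreated cells, and HSPD1P11, the largest, held 0, 7 and 10 counts after curcumin and 11, 6 and 19 in untreated cells. HSPD1P10 held 4, 0 and 0 counts after curcumin and 4, 1 and 4 in untreated cells. HSPD1P1 held 9 counts in curcumin replicate 1 and none elsewhere, and HSPD1P4 held 2 counts after curcumin and 4 in untreated cells. The 26 HSPE1 pseudogenes had 1 count after curcumin and 3 in untreated cells. How reads were shared between copies is not stated. The readthrough gene HSPE1-MOB4, which shares 192 exonic bases with HSPE1, had 13.0, 12.5 and 15.4 CPM after curcumin and 3.11, 2.88 and 0.945 CPM in untreated cells (log2 fold change 2.56 ± 0.39, adjusted p = 0.00040), so reads of these genes are uncertain between them. HSPD1 and HSPE1 themselves share 281 annotated exonic bases on opposite strands, and the use of strand is not stated.

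TRAP1, the HSP90 of the mitochondrial matrix (ENSG00000126602, chromosome 16, 3651639 to 3717597), rose. Its level was 461, 495 and 399 CPM after curcumin, against 262, 238 and 227 CPM in untreated cells, with no overlap between the groups (log2 fold change 0.90 ± 0.14, adjusted p = 0.00047). Under size-only scaling the groups overlapped and the value was 0.096 (adjusted p = 0.60). TRAP1 shares 1531 exonic bases with DNASE1 on the opposite strand, to which 463 counts after curcumin and 818 in untreated cells were assigned.

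GRPEL1, the nucleotide exchange factor that lets mitochondrial HSP70 release its client (ENSG00000109519, chromosome 4, 7058906 to 7068197), rose by a small amount. It had 53.5, 48.2 and 52.5 CPM after curcumin, against 41.7, 37.4 and 37.7 CPM in untreated cells. The groups did not overlap and the log2 fold change was 0.40 ± 0.14 (adjusted p = 0.036). That rise was called in 8 of 17 alternatives: it was lost without curcumin replicate 1 or 2 or without untreated replicate 1, 2 or 3 (adjusted p from 0.067 to 0.11), and under size-only scaling the gene was lower (-0.40, adjusted p = 0.046). Its paralogue GRPEL2 fell to 19.1, 25.5 and 32.4 CPM after curcumin, against 51.7, 42.7 and 48.4 CPM in untreated cells (-0.89 ± 0.20, adjusted p = 0.0040). HSPA9, the mitochondrial HSP70 itself, had 351, 378 and 534 CPM after curcumin and 331, 356 and 348 CPM in untreated cells (0.29 ± 0.17, adjusted p = 0.18). Curcumin replicate 3 was the highest of these, and without it the HSPA9 value was 0.081. Its value was -0.53 (adjusted p = 0.012) under size-only scaling and 0.63 (adjusted p = 0.0060) with the trend in transcript length and GC content removed. That trend used the longest coding transcript, and with median transcript lengths the HSPA9 value was -0.0066 (adjusted p = 0.98).

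CLPB, a disaggregase of the intermembrane space also known as Skd3 (ENSG00000162129, chromosome 11, 72285495 to 72434680), showed the largest fall of the 10. It had 23.4, 20.8 and 16.7 CPM after curcumin, against 35.7, 48.8 and 41.2 CPM in untreated cells. All curcumin libraries were below all untreated ones (log2 fold change -1.05 ± 0.19, adjusted p = 0.0011). That call ended once the trend with transcript length and GC content had been removed (-0.30, adjusted p = 0.26), which used the longest coding transcript of 10170 bases. With the median of its 11 coding transcripts, 2071 bases, the value was -1.07 (adjusted p = 0.0014).

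The 2 parts of the ClpXP protease moved apart. CLPP, the peptidase barrel (ENSG00000125656, chromosome 19, 6361452 to 6368910), had 99.3, 97.0 and 74.5 CPM after curcumin, against 59.9, 63.9 and 53.5 CPM in untreated cells (0.61 ± 0.16, adjusted p = 0.0083). CLPX, the unfoldase that feeds it (ENSG00000166855, chromosome 15, 65148219 to 65185342), had 29.7, 25.0 and 29.5 CPM after curcumin, against 36.6, 45.7 and 36.4 CPM in untreated cells (-0.50 ± 0.17, adjusted p = 0.027). CLPP was higher in every curcumin library and CLPX lower in every one. Neither call held with the length and GC trend removed (CLPP -0.091, adjusted p = 0.63; CLPX -0.12, adjusted p = 0.55), and CLPP was -0.19 (adjusted p = 0.38) under size-only scaling. The CLPX call was also lost without untreated replicate 2 (adjusted p = 0.077) and without curcumin replicate 2 (0.10). Per CLPP count there were 0.299, 0.258 and 0.396 CLPX counts after curcumin, against 0.610, 0.716 and 0.681 in untreated cells. The ratio was lower in 3 of 3 curcumin libraries (log2 difference -1.09, exact permutation p = 0.1, adjusted 0.125), though it sets a transcript of 4695 bases against one of 1157.

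LONP1, the Lon protease of the matrix (ENSG00000196365, chromosome 19, 5691834 to 5720572), had 143, 148 and 133 CPM after curcumin, against 145, 143 and 147 CPM in untreated cells. The log2 fold change was -0.036 ± 0.13 (adjusted p = 0.83), close to the median of all genes. Under size-only scaling it was called lower (-0.84, adjusted p = 0.00037), where the median of all genes was also -0.84. For each CLPP count there were 1.45, 1.53 and 1.78 LONP1 counts after curcumin, against 2.41, 2.25 and 2.75 in untreated cells (log2 difference -0.64, exact permutation p = 0.1, adjusted 0.125). This ratio too sets a longer transcript, of 3236 bases, against one of 1157.

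The inner membrane proteases went in opposite directions. YME1L1, the i-AAA protease facing the intermembrane space (ENSG00000136758, chromosome 10, 27110112 to 27155266), had 210.0, 198 and 209 CPM after curcumin, against 153, 154 and 141 CPM in untreated cells. The groups did not overlap (log2 fold change 0.46 ± 0.13, adjusted p = 0.011). The rise was 0.76 (adjusted p = 0.00058) with the length and GC trend removed, whereas under size-only scaling YME1L1 was lower (-0.35, adjusted p = 0.049). AFG3L2, a subunit of the m-AAA protease facing the matrix (ENSG00000141385, chromosome 18, 12328944 to 12377314), fell to 47.02, 48.6 and 38.6 CPM after curcumin, against 67.5, 72.8 and 60.7 CPM in untreated cells. Its groups did not overlap (-0.58 ± 0.15, adjusted p = 0.0091), and the call was kept in all 17 alternatives. AFG3L2 shares 837 exonic bases with TUBB6 on the opposite strand, to which 4727 counts after curcumin and 8028 in untreated cells were assigned, and reads of such a pair cannot be told apart without strand.

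Partners of both membrane proteases were set beside them within each library. SPG7, the paraplegin subunit that joins AFG3L2 in the m-AAA protease, also fell, to 39.5, 42.5 and 45.0 CPM after curcumin, against 88.9, 98.0 and 97.2 CPM in untreated cells (-1.16 ± 0.14, adjusted p = 9.0e-05). There were 1.07 ± 0.180 AFG3L2 counts per SPG7 count after curcumin and 0.709 ± 0.0731 in untreated cells (SD, n = 3 each; exact permutation p = 0.1, adjusted 0.125). OMA1, a stress-activated protease that shares the substrate OPA1 with YME1L1, had 7.30 ± 0.380 CPM after curcumin and 8.89 ± 0.624 CPM in untreated cells (-0.28 ± 0.22, adjusted p = 0.29; called lower under size-only scaling, -1.09). For each OMA1 count there were 29.6, 28.0 and 27.0 YME1L1 counts after curcumin, against 16.4, 16.9 and 17.3 in untreated cells. This ratio had the least spread of the 10 within its groups (log2 difference 0.74, exact permutation p = 0.1, adjusted 0.125).

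**Figure D2:**
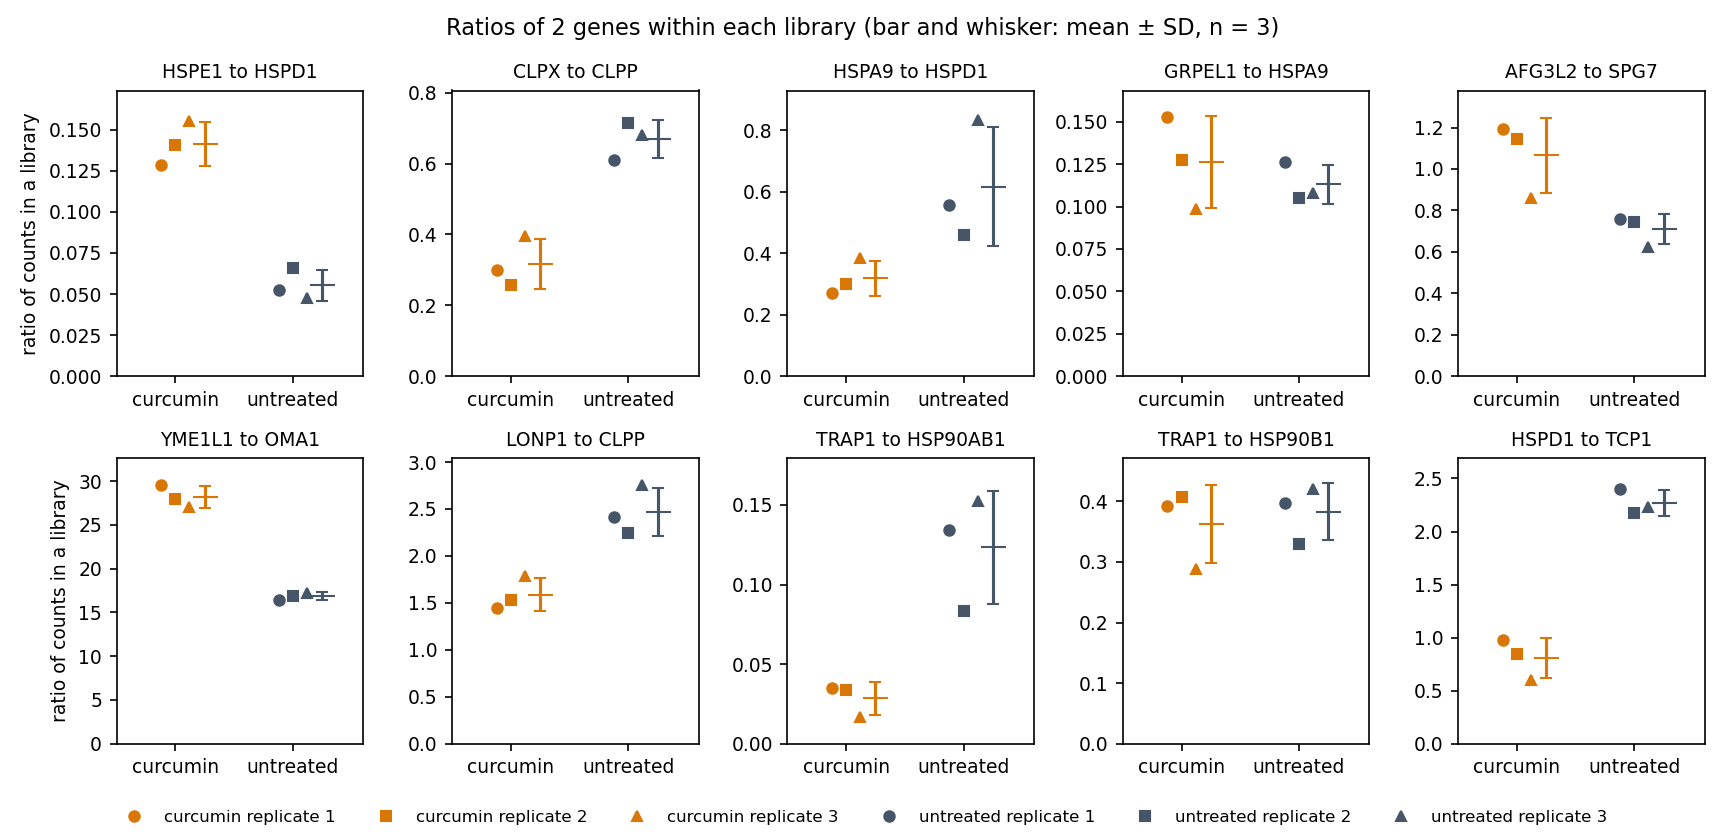
Ratio of the counts of 2 genes (vertical axes, from 0) in each curcumin and untreated library for 10 pairs, one symbol per replicate, with mean ± SD beside them. HSPE1 to HSPD1 and YME1L1 to OMA1 are higher in every curcumin library, CLPX to CLPP is lower in every one, and the groups overlap for GRPEL1 to HSPA9 and TRAP1 to HSP90B1.

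Chaperones of other compartments gave a scale for these changes. HSP90AB1, the cytosolic HSP90, rose by 3.05 ± 0.31 on the log2 scale (adjusted p = 3.8e-05), and there were 0.0284 ± 0.0104 TRAP1 counts per HSP90AB1 count after curcumin and 0.123 ± 0.0356 in untreated cells. That is a difference of -2.15 on the log2 scale, with no overlap. TCP1, a subunit of the cytosolic chaperonin TRiC, rose by 2.70 ± 0.28 (adjusted p = 4.2e-05), and there were 0.974, 0.844 and 0.600 HSPD1 counts per TCP1 count after curcumin, against 2.40, 2.18 and 2.23 in untreated cells (log2 difference -1.52). Both ratios had an exact permutation p of 0.1 (adjusted 0.125). HSP90B1, the HSP90 of the endoplasmic reticulum, rose by 0.97 ± 0.16 (adjusted p = 0.00054; 0.36 under size-only scaling). There were 0.362 ± 0.0648 TRAP1 counts per HSP90B1 count after curcumin and 0.383 ± 0.0470 in untreated cells (log2 difference -0.087, exact permutation p = 0.6), a comparison too small to show that both act alike. HSPA9 counts per HSPD1 count were 0.318 ± 0.0579 after curcumin and 0.617 ± 0.193 in untreated cells (exact permutation p = 0.1, adjusted 0.125). For GRPEL1 per HSPA9 count the values were 0.126 ± 0.0271 after curcumin and 0.113 ± 0.0113 in untreated cells (exact permutation p = 0.6).

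Per length, the order of the 10 genes differed most between the groups in the place of HSPE1. In CPM per kilobase of the longest coding transcript, HSPD1 was first, with 537 ± 27.8 after curcumin and 243 ± 72.5 in untreated cells. After curcumin HSPE1 came second at 197 ± 28.0, beside TRAP1 at 196 ± 21.1 with overlapping libraries. In untreated cells TRAP1 was second at 105 ± 7.64, and HSPE1 was sixth at 35.8 ± 16.6, with libraries from 20.9 to 53.7 that overlapped or spanned those of CLPP, LONP1, YME1L1 and AFG3L2, so its place there is not firm. LONP1 and YME1L1 also changed places, at 43.7 ± 2.47 and 49.8 ± 1.63 after curcumin and 44.8 ± 0.593 and 36.3 ± 1.78 in untreated cells, with no overlap within either group. GRPEL1 and AFG3L2 did so too, at 18.5 ± 1.03 and 13.8 ± 1.66 after curcumin and 14.0 ± 0.872 and 20.6 ± 1.87 in untreated cells. CLPX and CLPB were lowest in both groups, at 5.97 ± 0.563 and 1.99 ± 0.334 after curcumin and 8.43 ± 1.13 and 4.12 ± 0.647 in untreated cells. The CLPB level depends most on the transcript taken, 10170 bases here. HSPD1 alone held 50.2 to 54.4% of the 10 genes' counts after curcumin and 35.4 to 47.5% in untreated cells. The summed level of the 5 protease genes was 484 to 529 CPM after curcumin and 439 to 480 CPM in untreated cells.

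Fold changes across the transcriptome fell with transcript length, so each gene was set against genes of like length. Of 5 equal length groups of 13093 protein-coding genes, the shortest (207 to 1956 bases) had a median log2 fold change of 0.81, the second 0.26, the third -0.077, the fourth -0.36 and the longest (from 5747 bases) -0.72. HSPE1 (950 bases) and CLPP (1157 bases) belong to the shortest group, HSPD1, TRAP1 and GRPEL1 to the second, LONP1 and AFG3L2 to the third, YME1L1 and CLPX to the fourth and CLPB to the longest. With the trend removed 4 genes rose (HSPE1 by 1.51, HSPD1 by 0.98, YME1L1 by 0.76 and TRAP1 by 0.60), against 26.0% of all genes, and 1 fell (AFG3L2, -0.57), against 23.5%. These numbers depend on the transcript taken, here the longest coding one. With median transcript lengths 5 rose and 2 fell, against 3507 and 3447 of 13093 genes. GRPEL1 then also rose (0.64, adjusted p = 0.0042) and CLPB also fell (-1.07, adjusted p = 0.0014). HSPE1 was at 1.96, and HSPD1 and TRAP1 were both at 0.86.

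**Figure D3:**
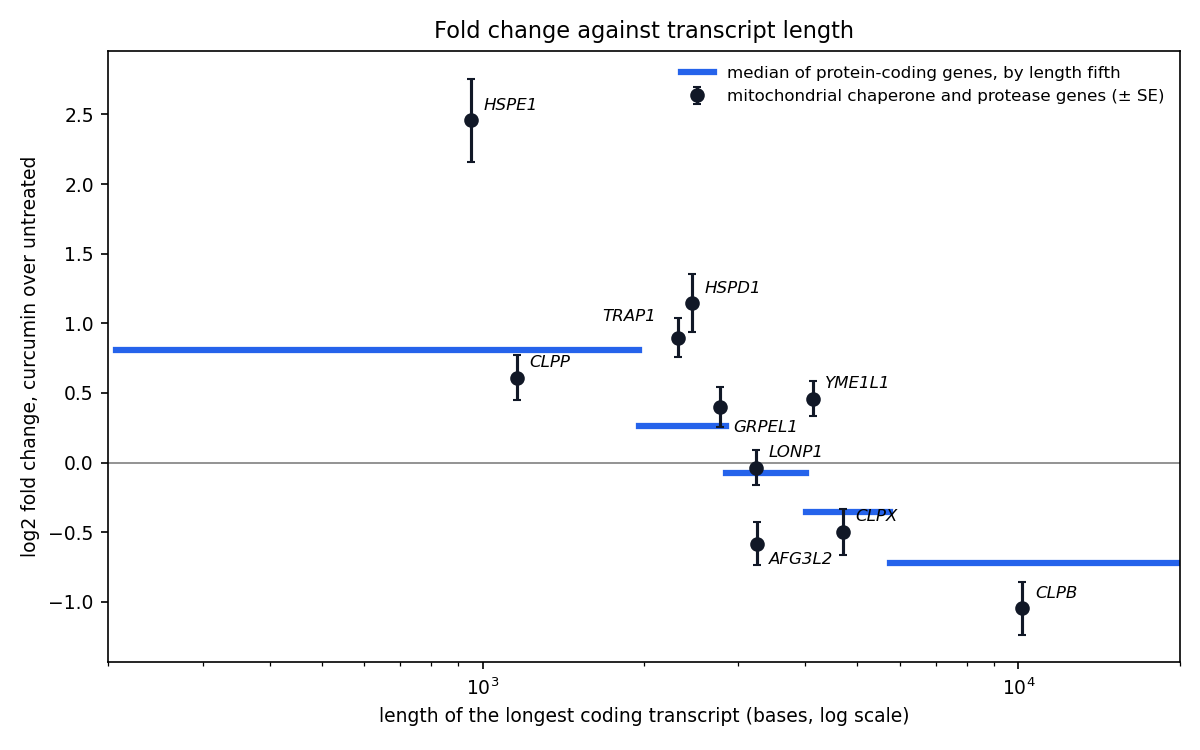
Log2 fold change, curcumin over untreated (vertical axis, ± SE), against the length of the longest coding transcript (horizontal axis, log scale) for the 10 genes, with the median of protein-coding genes in each of 5 length groups as bars, the last bar cut off at the axis limit. HSPE1, HSPD1, TRAP1 and YME1L1 lie above their group's median by more than their SE, CLPP, AFG3L2 and CLPB lie below it by more than their SE, and GRPEL1, LONP1 and CLPX lie within it.

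**Figure D4:**
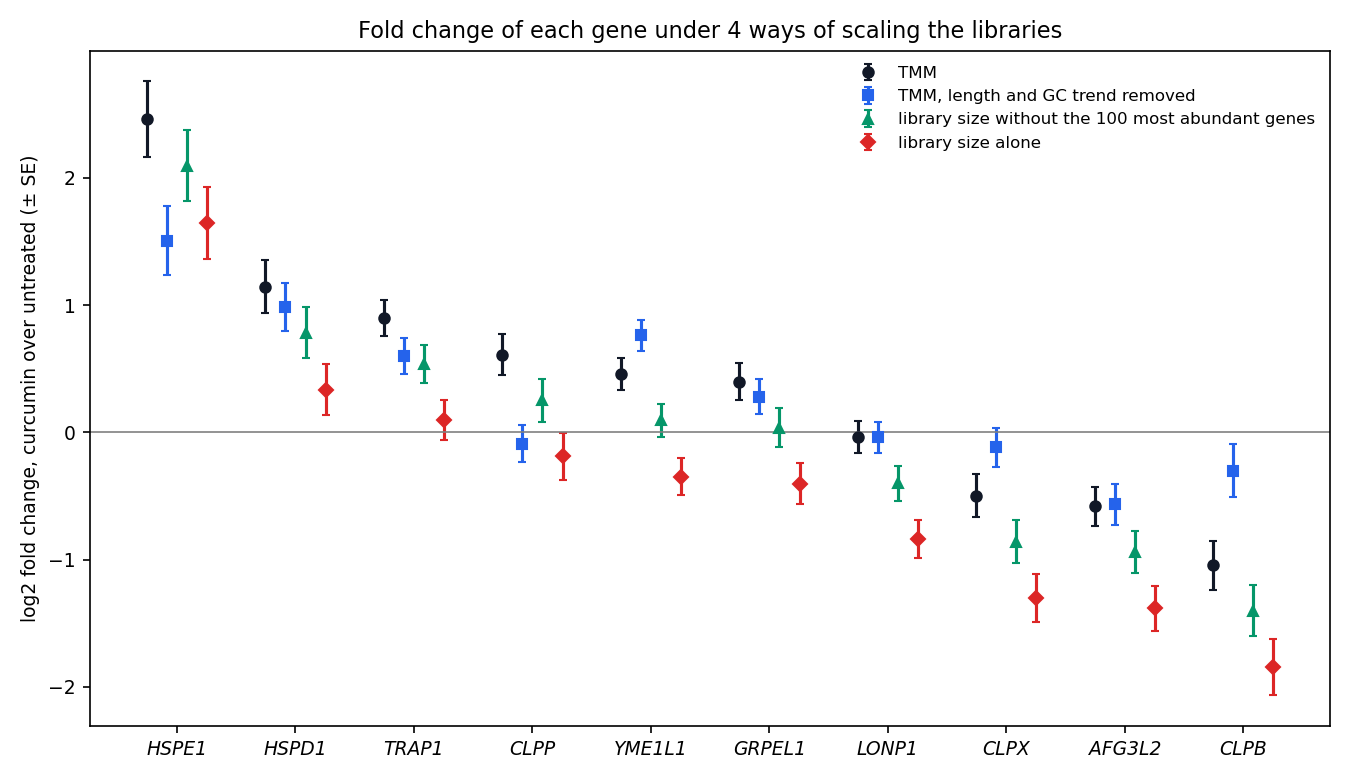
Log2 fold change, curcumin over untreated (vertical axis, ± SE), of the 10 genes under 4 ways of scaling, ordered by the TMM value. HSPE1 stays above 1.5 and AFG3L2 below -0.5 under all 4, whereas GRPEL1, CLPP and YME1L1 change sign under size-only scaling.

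The other genes of mitochondrial protein quality control also gave calls in both directions. Over 5 lists with 71 further genes, 70 were tested: 31 rose and 11 fell (27.2% and 28.9% of all genes), and under size-only scaling 6 rose and 30 fell (9.62% and 56.5% of all genes). Their median log2 fold change was 0.41. Of 11 other chaperones and co-chaperones, 4 rose and 2 fell, and 0 rose and 5 fell under size-only scaling. BCS1L, which inserts the Rieske protein into complex III, rose to 28.3 ± 1.05 CPM after curcumin, against 14.0 ± 2.42 CPM in untreated cells (SD, n = 3 each; adjusted p = 0.0011). HSCB, a J-protein of iron-sulphur cluster transfer, rose by 1.19 ± 0.23 on the log2 scale, and neither of these was called under size-only scaling. The HSCB call was also lost with the length and GC trend removed (0.36, adjusted p = 0.19). It was kept with median transcript lengths in that trend (0.94, adjusted p = 0.0046). Besides GRPEL2, DNAJA3, the J-protein partner of mitochondrial HSP70, fell (-0.56 ± 0.22, adjusted p = 0.048; 0.095 without untreated replicate 2).

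Among 18 other proteases, peptidases and their scaffolds, 8 rose and 3 fell (27.2% and 28.9% of all genes). Under size-only scaling 1 rose and 7 fell (9.62% and 56.5% of all genes). PHB2, a prohibitin whose ring surrounds the m-AAA protease, rose to 660.0 ± 22.1 CPM after curcumin, against 248 ± 16.0 CPM in untreated cells (1.41 ± 0.13, adjusted p = 2.5e-05; 0.61, adjusted p = 0.0028 under size-only scaling). STOML2, the scaffold that holds YME1L1, rose by 0.97 ± 0.14 (adjusted p = 0.00033), a call lost under size-only scaling (0.17, adjusted p = 0.37) and with the length and GC trend removed (0.24, adjusted p = 0.17). With median transcript lengths in that trend the call was kept (0.71, adjusted p = 0.0024). SPG7 and PMPCA, a subunit of the peptidase that removes import signals, had the smallest adjusted p among those that fell, PMPCA at -0.96 ± 0.15 (adjusted p = 0.00047).

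Of 19 import genes, 8 rose and 1 fell (27.2% and 28.9% of all genes), and 2 rose and 9 fell under size-only scaling (9.62% and 56.5% of all genes). TOMM7, a small subunit of the outer membrane translocase, rose to 27.9 ± 3.12 CPM after curcumin, against 5.48 ± 1.06 CPM in untreated cells (2.34 ± 0.21, adjusted p = 2.3e-05), and TOMM22, its central receptor, rose by 1.10 ± 0.15 (under size-only scaling 0.30, adjusted p = 0.13). The receptor TOMM70 fell (-0.46 ± 0.16, adjusted p = 0.038), a call lost without curcumin replicate 2 (adjusted p = 0.13) and with the length and GC trend removed (adjusted p = 0.46). Among 10 substrates of the proteases, 5 rose and 2 fell (2 and 5 under size-only scaling). SMDT1, the calcium uniporter subunit degraded by the m-AAA protease when unassembled, rose by 1.72 ± 0.24 (adjusted p = 0.00021). The lipid carrier STARD7 and the mitochondrial DNA packaging factor TFAM, a Lon substrate, fell (-0.58 ± 0.14 and -0.64 ± 0.16, adjusted p = 0.0050 and 0.0071). With the length and GC trend removed TFAM was at -0.16 (adjusted p = 0.41), and with median transcript lengths at -0.71 (adjusted p = 0.0036). STAR, a steroid-transport gene, had 24, 15 and 60 counts after curcumin and 0, 0 and 1 in untreated cells, a 194-fold ratio (95% interval from counting error alone, 34.1 to 7749).

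Of 14 genes of mitochondrial stress signalling, 13 were tested, and 6 rose and 3 fell (27.2% and 28.9% of all genes). Under size-only scaling 1 rose and 5 fell (9.62% and 56.5% of all genes). FGF21 did not pass the filter. HSF1, the heat shock factor, had 309, 310.3 and 246 CPM after curcumin, against 144, 128 and 159 CPM in untreated cells (1.01 ± 0.15, adjusted p = 0.00036; 0.21, adjusted p = 0.29 under size-only scaling). ATF5, the factor most often named for the mitochondrial unfolded protein response in mammals and named here after its values were seen, fell to 16.1, 11.7 and 16.8 CPM, against 30.3, 30.8 and 41.1 CPM in untreated cells (-1.20 ± 0.21, adjusted p = 0.00079). ATF4, on the same list and also named after its values were seen, went the other way. It rose to 785, 910.0 and 1319 CPM after curcumin, against 493, 277 and 429.9 CPM in untreated cells (1.33 ± 0.25, adjusted p = 0.0013). Under size-only scaling the ATF4 value was 0.51 (adjusted p = 0.057). DDIT3 (CHOP), a transcription factor of the integrated stress response, rose to 94.2, 130.1 and 227 CPM after curcumin, against 19.3, 5.68 and 19.4 CPM in untreated cells (3.34 ± 0.46, adjusted p = 0.00022). CEBPB, a partner of CHOP, fell by 2.30 on the log2 scale (adjusted p = 4.2e-05). GDF15, a secreted stress hormone, fell to 217 ± 36.0 CPM after curcumin, against 641 ± 216 CPM in untreated cells (adjusted p = 0.00041).

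**Figure D5:**
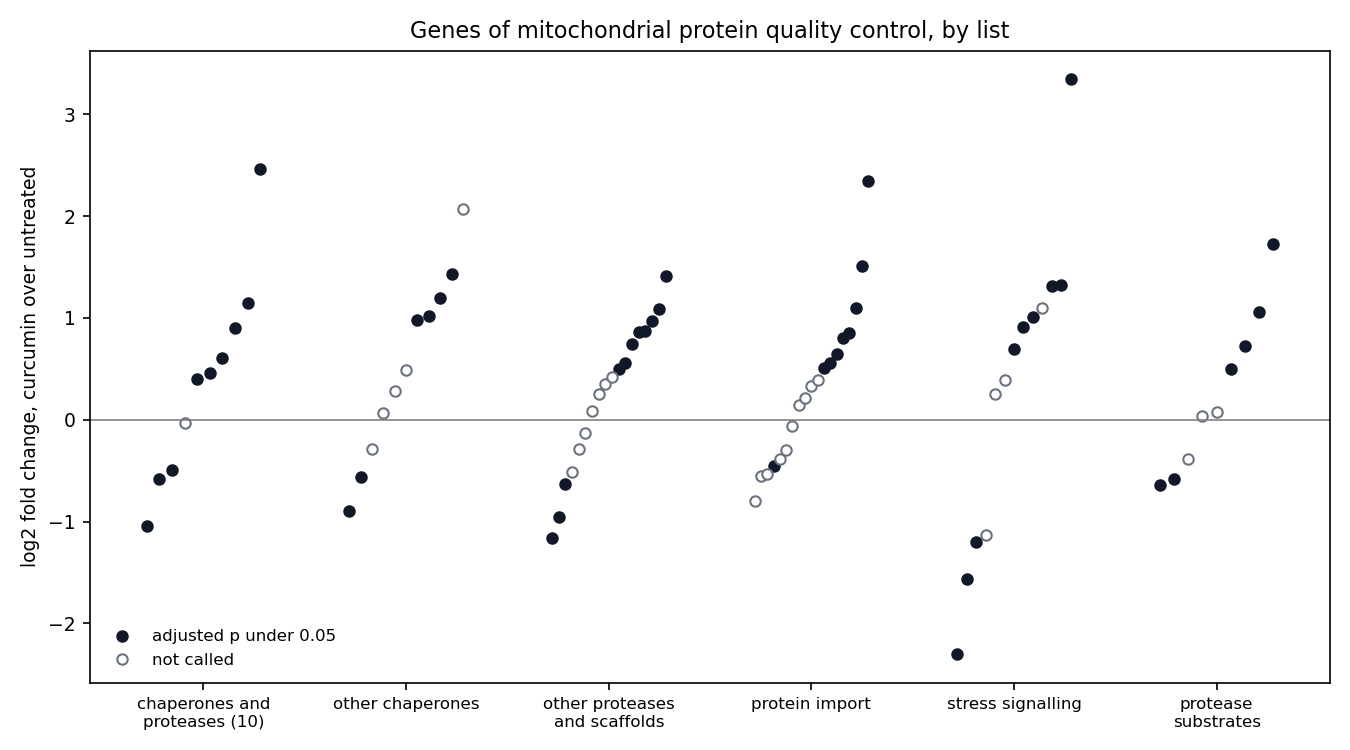
Log2 fold change, curcumin over untreated (vertical axis), of the 10 genes and of the genes of 5 related lists, each in rising order, filled where the edgeR adjusted p was under 0.05. Every list holds genes called in both directions, and STAR, at 1 untreated count, and FGF21, not tested, are not drawn.

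By distance between TMM log2 CPM centred on each gene's mean, over 6 libraries, the genes nearest to HSPD1 were NRGN, PSMD13 and CCT5 (root mean square differences 0.061, 0.072 and 0.077). Nearest to HSPE1 were RPL17-C18orf32, BSCL2 and TCP1 (0.15, 0.19 and 0.20). Nearest to CLPB were TAF6L, CTCF and GPRC5B (0.049, 0.058 and 0.069). All 6 libraries share the treatment difference, so the likeness is a description.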

How the data were processed

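The deposited table holds expected counts per gene (estimated counts, not whole numbers, unscaled between libraries) for 3 curcumin and 3 untreated HCT116 libraries. Per the labels' protocols, a SMARTER mRNA-Seq kit was used. Aligner, counter, annotation and use of strand were not given in the sources used here, and the submitters' processing notes list GRCm38 and mm10, which are mouse builds, yet all 35106 rows carry human Ensembl identifiers. Positions, lengths and gene types were looked up by identifier in GENCODE release 29 (35003 rows found), and promoter windows came from RefSeq.

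Counts were rounded (largest change 0.5), filtered with filterByExpr (minimum count 10, minimum total 15), TMM-scaled and fitted by quasi-likelihood in edgeR 4.0.16 (R 4.3.3), curcumin against untreated, with Benjamini-Hochberg adjustment over all genes and calls at 0.05. The SE is the log2 fold change over the square root of the F statistic. Ratios within a library used counts plus 0.5 on the log2 scale and exact permutation tests (SciPy 1.17.1). Alternatives were RLE factors, library size alone, no filter, library sizes leaving out the 100 most abundant genes, a mean of 50 counts, DESeq2 1.42.0, limma-voom (limma 3.58.1), the replicate number as a block, each library left out, pseudogene counts added, and each library's loess trend (span 0.3) with transcript length and GC removed for 13093 protein-coding genes. The same trend with median transcript lengths was added after seeing the data.

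The genes, lists and tests were chosen with earlier results of these data known. Named genes are the 10, the 2 called genes with the smallest adjusted p in each direction of each list, partners in ratios, pseudogenes averaging at least 1 count and the 3 nearest genes. No molecular identifiers are stated, so intervals cover counting error only. On simulated data for curcumin against untreated (3 against 3 libraries, 13718 genes drawn and 13551 past the filter), the test found 53 of 100 genes with a 2-fold change, 88 of 100 with a 4-fold change and 14 of 13518 without one. Far fewer genes were changed there than the 56.1% called in the data. The adjusted p depends on that share, so these rates do not carry over to the real comparison. No pair of replicates agreed within sampling noise (chi-square per degree of freedom 11.1 to 71.2).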

Additional observations from a re-analysis of the deposited data

How the results depend on the processing

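Calls rested mostly on the scaling. With library size alone, all genes gave 1320 higher and 7744 lower (9.62% and 56.5%), the 10 genes 1 and 6, and the related lists 6 and 30. Leaving the 100 most abundant genes out of library sizes, the 10 genes gave 3 higher and 4 lower. The related lists then gave 19 higher and 18 lower, against 18.6% and 40.6% of all genes. With the length and GC trend removed, 4 of the 10 genes were higher and 1 lower, and 22 of the related genes higher and 17 lower, against 26.0% and 23.5% of all genes. Median transcript lengths in that trend gave 5 and 2 of the 10 genes and 26 and 10 of the related genes, against 3507 and 3447 of 13093. Library size alone turned GRPEL1 to -0.40, CLPP to -0.19, YME1L1 to -0.35 and HSPA9 to -0.53, each above the median of all genes under that scaling (-0.84). CLPP was also -0.091 with the trend removed and -0.069 with median transcript lengths. LONP1, near 0 throughout TMM-like settings, was 0.0086 with RLE factors, 0.0033 with the mean count filter, 0.0086 with DESeq2, 0.010 without curcumin replicate 3 (-0.083 to 0.010 over libraries left out) and 0.11 with median transcript lengths. The ratio of GRPEL1 to HSPA9 turned to -0.011 without curcumin replicate 1 (-0.011 to 0.31 over libraries left out), and that of TRAP1 to HSP90B1 to 0.070 without curcumin replicate 3 (-0.19 to 0.070). The cause was not tested in any of these. With no filter, GRPEL1 and YME1L1 lost their calls (adjusted p = 0.16 and 0.063).

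Leaving out 1 library left 5 to 6 of the 10 genes higher and 2 to 3 lower. Over all genes it left 3253 to 3843 higher and 3369 to 4306 lower, of 13973 to 14173 tested. With the replicate number as a block, 3683 genes were higher and 4011 lower, and 6 and 3 of the 10 genes, which changed no call among them. Deviations of same-numbered libraries correlated at 0.041, 0.031 and 0.13 across genes, and curcumin replicate 1 correlated more with untreated replicate 2 (0.050) than with its own number. Replicate 3 with its own number gave the highest value of any pair (0.13). The labels state no pairing, and correlations this weak cannot settle whether there was one. Depth was not limiting for the 10 genes, the lowest of which (CLPB) had 213 counts or more in every library.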

Other observations

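The subunits of the mitochondrial processing peptidase and the TIMM17 paralogues of the import machinery are named here after their values were seen. PMPCB, the catalytic partner of PMPCA, rose to 86.3 ± 4.34 CPM after curcumin, against 51.4 ± 4.22 CPM in untreated cells (SD, n = 3 each; log2 fold change 0.75 ± 0.14, edgeR adjusted p = 0.0013), whereas PMPCA fell to 45.9 ± 5.70 CPM, against 89.2 ± 6.15 CPM in untreated cells. With library size alone PMPCB was -0.055 (adjusted p = 0.78) and PMPCA -1.76. TIMM17B, a paralogue of the inner membrane channel subunit TIMM17A, rose to 18.7 ± 2.55 CPM, against 6.54 ± 0.609 CPM in untreated cells (1.51 ± 0.21, adjusted p = 0.00020). TIMM17A itself, a substrate of YME1L1, had 41.1 ± 6.48 CPM after curcumin and 53.7 ± 18.5 CPM in untreated cells (-0.39 ± 0.24, adjusted p = 0.19). The differences between the genes of each pair were not tested.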
